A study of Mus musculus with 4 samples.

Results

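Introns held 463 of the 4544 ATF4 peaks listed for mouse CD4+CD25+ regulatory T cells, or 10.2% (95% exact interval 9.32 to 11.1). A peak was taken as intronic when the deposited annotation class of that peak began with Intron, and that annotation names the host transcript, the host gene and the number of the intron. The study enriched chromatin with an ATF4 antibody in 2 ATF4 ChIP samples, and 2 input samples of sheared chromatin were kept beside them. The cells were enriched CD4+CD25+ cells, with spleen named as the tissue in the labels and spleen and lymph nodes in the design, and the labels give no genotype, strain, treatment or age, and do not say whether the samples of a group came from separate mice. Only 1 peak list on build mm10 was used here, with no values per sample, so the depth is unknown, no value has a replicate error and no test was made. Intervals, all at 95%, cover counting error within this list only.

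Cells make more ATF4, a transcription factor with a basic leucine zipper, when they lack amino acids or suffer stress in the endoplasmic reticulum. It binds as a dimer, often with C/EBP proteins at a composite element, and it is best known for sites close to the start of genes for amino acid supply. Introns hold many of the enhancers of lymphocyte genes, and those in the first intron of Foxp3 are a well-studied case. A peak in an intron may act on the gene around it, on a neighbour or on none, and the position alone does not say which.

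No genome sequence was used here, so the bases under the intron peaks are not shown. Sequence was at hand in RefSeq windows (build GRCm38.p6) that run from 250 bases before to 50 bases after a gene's start, and 313 of the 392 host genes had at least 1. Of the 463 intron peaks, 0 touched any of these 32851 windows. The class left little room for any, since peaks nearer than 3 kb to a TSS fall to the Promoter class. The summit of another listed peak did lie in 49 start windows of 47 host genes. The C/EBP-ATF composite element, searched as TGATGNAAN on both strands, was found in 4 of these 49 windows (8.16%), against 48 of 1284 start windows of other genes that held a summit (3.74%) and 3.95% of all 32851 windows. Its form TGATGCAA, which lies within the first motif, was in 2 of the 49 windows (4.08%), against 1.87% of the other windows with a summit and 0.895% of all. These counts are of windows, so a gene with more than 1 window can count more than once. With 1 window kept per host gene, the element was found only at Gm38424, Tmem154 and Sfpq, and TGATGCAA only at Gm38424. The cyclic AMP response element TGACGTCA was in 0 of the 49, against 5.37% of the other windows with a summit and 1.79% of all windows. The AP-1 motif TGANTCA was in 1 of the 49 (2.04%), against 4.75% and 7.81%. With so few windows these shares are descriptions only, and a match is a run of letters, not a binding site.

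The start window of Gm38424, a long noncoding RNA gene, is shown because this gene had the strongest start peak of those 47 hosts and also 1 of the strongest intron peaks. It spans chr5:31596693-31596992 on the plus strand, and it is given 5′ to 3′ in lower case. Capitals mark the composite element, here ATTGCATCA, which is the reverse complement of a match to the motif, and further on an ETS core, searched as CCGGAAG. The first base of the element lay 119 bases before the gene start, and its middle lay 9 bases from the summit of the start peak.
Gm38424: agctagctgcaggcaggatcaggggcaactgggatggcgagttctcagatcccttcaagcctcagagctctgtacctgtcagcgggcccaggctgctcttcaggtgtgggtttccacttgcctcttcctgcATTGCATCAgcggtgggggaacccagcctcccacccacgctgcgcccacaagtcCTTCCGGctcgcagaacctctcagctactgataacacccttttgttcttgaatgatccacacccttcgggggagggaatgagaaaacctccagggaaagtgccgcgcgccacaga

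Short stretches of the same kind follow for Tmem154, a gene for a membrane protein, and Sfpq, a gene for a splicing factor, to show how the element stood at 2 weaker start peaks. The Tmem154 window lies at chr3:84665942-84666241 and the Sfpq window at chr4:127021051-127021350, both on the plus strand, and capitals mark the element.
Tmem154: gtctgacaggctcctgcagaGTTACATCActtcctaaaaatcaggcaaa
Sfpq: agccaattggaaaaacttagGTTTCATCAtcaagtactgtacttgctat

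The start peaks of these 2 hosts had fold enrichments of 2.83 for Tmem154 and 2.15 for Sfpq, and their strongest intron peaks had 2.84 and 4.21. The middle of the element lay 2 bases from the summit at Tmem154 and 128 bases from it at Sfpq. The element was therefore close to the summit at Gm38424 and Tmem154 and not at Sfpq.

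The strongest intron peaks lay in a noncoding RNA gene, a further noncoding RNA gene and an amino acid transporter gene. Strength is given as the authors' fold enrichment at the summit, a linear ratio over background, with their −log10 q beside it. The peak in intron 1 of Gm35730 reached 25.8 with a −log10 q of 143 (chromosome 13, 6636540 to 6636940). This position is also inside Pfkp, which encodes a phosphofructokinase isoform of glycolysis and whose own promoter peaks were far weaker, at 3.13 and 2.90. The peak in intron 3 of Gm35507 reached 24.7 with a −log10 q of 219 (chromosome 3, 106832191 to 106832632), and it was assigned to the odorant receptor gene Olfr266, 9.63 kb away.

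Slc7a5, the light chain of a leucine transporter, came next, with an intron peak at 24.0 with a −log10 q of 101 (chromosome 8, 121898164 to 121898738). It lay in intron 1, 8.95 kb downstream of the transcription start site (TSS). This was the only listed peak assigned to Slc7a5 and the only one inside its span, so the gene had no promoter peak in the list. The noncoding RNA gene Gm26812 ended 18.6 kb away, and its promoter held 2 peaks at 43.8 and 8.18.

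Of all 463 intron peaks, 7 reached a fold enrichment of 10 (1.51%, interval 0.610 to 3.09), against 1.58% of all listed peaks, so the share was near that of the list. After those 3 came the peak in intron 28 of Atp9b at 14.3, which was assigned to Nfatc1, a T cell activation factor whose TSS lay 25.1 kb off and whose 3 promoter peaks ranged from 3.11 to 3.96. Gm13807 followed at 14.2 in intron 4, assigned to Mir7001. Gm38424 had 12.8 in intron 2, 5.44 kb from its TSS, and 18.2 at the start window shown above. The last of the 7 was in intron 2 of Itga2, an integrin chain that binds collagen, at 10.0. Long noncoding RNA genes hosted 4 of these 7 peaks and 45 of all 463 (9.72%).

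**Figure D1:**
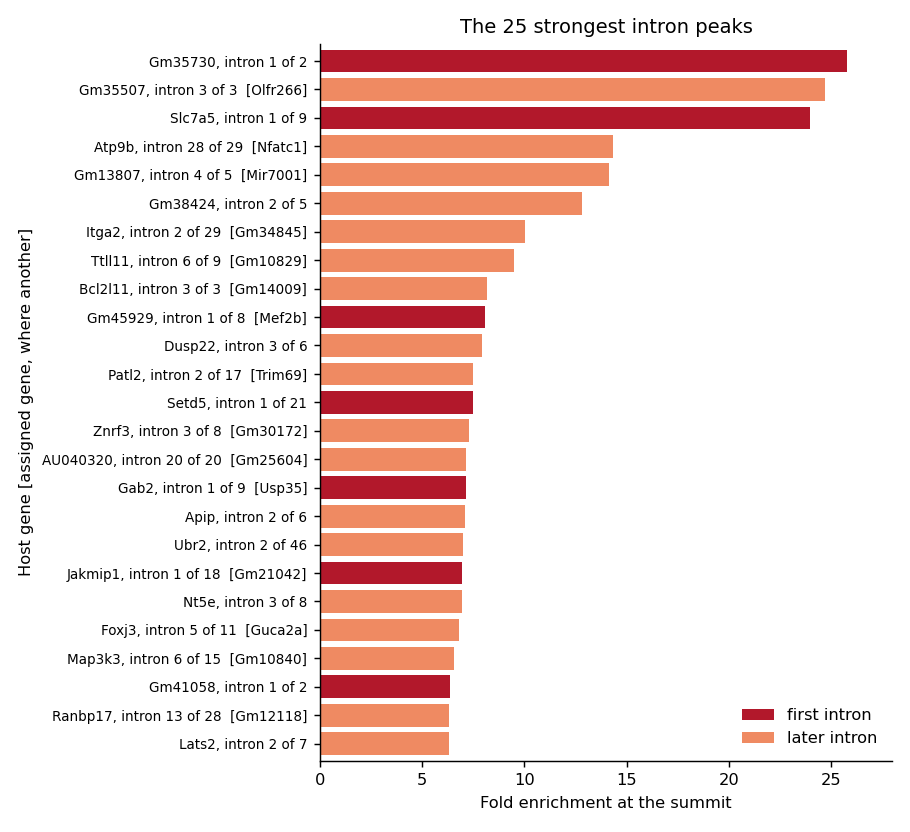
Fold enrichment at the summit (x axis) of the 25 strongest intron peaks, 1 bar each, labelled with the host gene and intron and, in brackets, the assigned gene where it was another. Values run from 25.8 at Gm35730 to 6.32 at Lats2, 7 bars are first introns, and 15 carry a second gene name.

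The rest of the 25 strongest intron peaks ran from 9.47 at Ttll11 to 6.32 at Lats2, and all are in the plot of these peaks. Those described here were picked from them for a known role of the host, after their values were seen. Bcl2l11, which encodes the pro-apoptotic BH3-only protein BIM, had a peak of 8.16 in intron 3, at chromosome 2, 128153061 to 128153295. That was higher than its promoter peaks at 4.18 and 2.12, although the deposited table assigned the intron peak to Gm14009. Dusp22, a dual specificity phosphatase that dampens T cell receptor signalling, had 7.91 in intron 3. Gab2, a scaffold of receptor signalling, had 7.14 in intron 1, and that peak was assigned to Usp35 at 104 kb. Apip, an enzyme of methionine salvage, had 7.09 in intron 2 and no other listed peak. Nt5e, the ectonucleotidase CD73 of regulatory T cells, had 6.95 in intron 3, 29.6 kb from its TSS, and no other listed peak.

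The widest intron peak covered 2932 bp in intron 2 of Patl2, at a fold enrichment of 7.49 and a −log10 q of 16.6. It began 0.729 kb beyond the end of B2m, the invariant chain of class I MHC, and was assigned to Trim69, 3.97 kb from its TSS. A narrower peak between them, at 3.92, was assigned to B2m, which also had promoter peaks at 4.83 and 2.70. The median width of intron peaks was 238 bp, against 261 bp over all listed peaks.

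The median fold enrichment was 3.66 (interval 3.56 to 3.79, quartiles 3.07 and 4.42), against 3.43 (3.31 to 3.55) at 524 Distal Intergenic peaks and 3.19 (3.15 to 3.24) at 3375 Promoter peaks. Intron minus Distal Intergenic was 0.23 (interval 0.07 to 0.41) and intron minus Promoter 0.47 (0.36 to 0.61). A fold enrichment of at least 5 was reached by 65 intron peaks, or 14.0% (11.0 to 17.5), against 12.3% of all listed peaks, which lies inside that interval. Among peaks with a −log10 q of at least 3 this no longer held, with 65 of 289 intron peaks at that fold enrichment, or 22.5% (17.8 to 27.7). Over the list it was 559 of all 3495 (16.0%), which lies below that interval. The counts of 65 and 559 were the same before this filter. Only the totals fell, and more so in introns, so the wider gap does not show more strong peaks there. By −log10 q the order was the other way round. Its median was 3.68 (3.47 to 4.15) in introns, 4.14 (3.72 to 4.43) at Distal Intergenic peaks and 6.45 (6.26 to 6.74) at Promoter peaks, and the interval of intron minus Distal Intergenic, −0.81 to 0.17, spans 0. In introns, 174 of 463 peaks had a −log10 q under 3, which is 37.6%, against 23.1% of the whole list.

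Many weak peaks had identical values. Of the intron peaks, 311, or 67.2% (62.7 to 71.4), shared both fold enrichment and −log10 q exactly with another listed peak, against 59.2% (57.8 to 60.6) of all listed peaks. The commonest pair, a fold enrichment of 4.42 with a −log10 q of 3.50, occurred at 10 intron peaks. Ranks among such peaks therefore carry ties, and the 25th and 26th strongest both stood at 6.32.

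**Figure D2:**
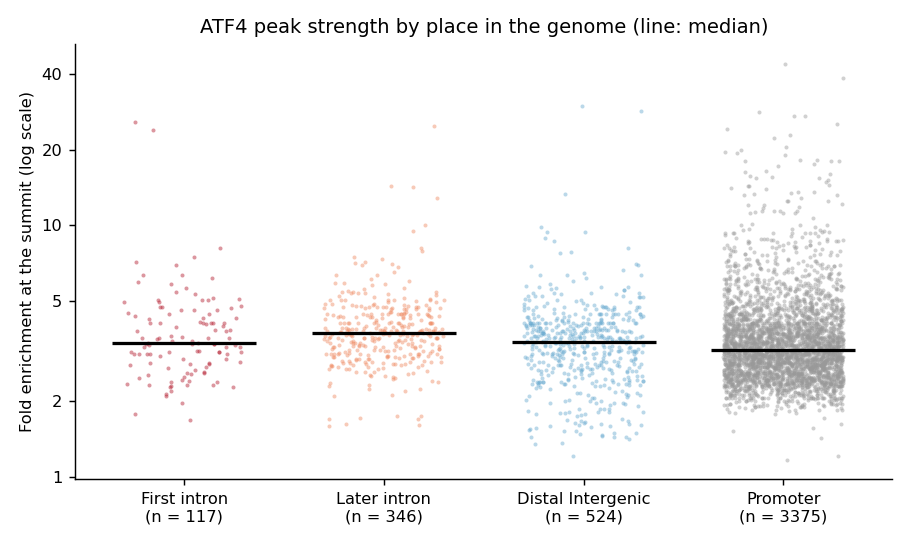
Fold enrichment at the summit (log scale) of every peak in a first intron, in a later intron, in Distal Intergenic DNA and at a Promoter, 1 point a peak, with a line at the median. Medians stand at 3.41, 3.73, 3.43 and 3.19, and the point clouds overlap over most of their range.

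First introns held 117 of the 463 intron peaks, or 25.3% (21.4 to 29.5), intron 2 held 89 (19.2%) and intron 3 held 57 (12.3%). The host transcripts had a median of 11 introns. If each intron of a host transcript counted equally, 16.1% of peaks would fall in first introns, but intron lengths were not used here. Peaks nearer than 3 kb to a TSS fall to the Promoter class, so peaks in the part of a first intron next to the start are missing from these counts. The median fold enrichment was 3.41 (3.16 to 3.81) in first introns and 3.73 (3.61 to 3.79) in later ones, a first minus later difference of −0.32 (interval −0.58 to 0.10). The interval of this difference spans 0. By −log10 q the medians were 3.65 in first and 3.68 in later introns.

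Strong peaks occurred in both places. A fold enrichment of at least 5 was found at 19 of 117 first-intron peaks (16.2%, 10.1 to 24.2) and at 46 of 346 later-intron peaks (13.3%, 9.90 to 17.3). After Gm35730 and Slc7a5, the strongest first-intron peaks were at Gm45929, at 8.09 and assigned to the B cell factor gene Mef2b, at Setd5, at 7.47, and at Gab2. The peak at Gm45929 also lay inside the span of Mef2b. The difference of medians had the opposite sign, 0.16, when only peaks with a fold enrichment of at least 3 were kept. Erdr1, whose 5 intron peaks ranged from 1.96 to 3.36, lies on both sex chromosomes, and all of its intron peaks counted as first introns. Without these and 1 peak on an unplaced sequence the difference was −0.19.

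The host gene was not always the assigned gene. It was so for 271 of 463 peaks, or 58.5% (53.9 to 63.1), and the other 192 were assigned to the nearer start of another gene. The 2 agreed for 85 of 117 first-intron peaks (72.6%, 63.6 to 80.5) and for 186 of 346 later-intron peaks (53.8%, 48.3 to 59.1), and these intervals do not overlap. Peaks were assigned by the nearest start, and a first intron is the one next to the start of its transcript. Some such difference is therefore built into the assignment. The median fold enrichment was 3.75 (3.57 to 3.86) where another gene was assigned and 3.61 (3.47 to 3.79) where the host was, a difference of 0.14 (interval −0.11 to 0.31).

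Assigned genes that were not the host were mostly noncoding, at 129 of 192 peaks (67.2%). Of the 192, 63 were assigned to coding genes, 63 to long noncoding RNA genes, 48 to pseudogenes and 10 to microRNA genes. Of the 271 peaks assigned to their host, 236 had a coding gene (87.1%), near the 88.1% of all 463 intron peaks with a coding host. The assigned gene lay wholly inside the span of the host for 105 of the 192 peaks, overlapped it in part for 29 and lay outside it for 58. A promoter peak of its own was listed for the assigned gene of 21 of the 192 peaks (10.9%), and for the host gene of 52 (27.1%). These shares count peaks, so a gene with several peaks counts several times. At most of these peaks the assigned gene was noncoding. The 11.3% of all coding genes with a promoter peak is a share of genes, so it is no baseline for either share. Where the host was assigned, 107 of 271 peaks (39.5%) had a host with a promoter peak.

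Named cases show what the assignment changes. Tigit, an inhibitory receptor of regulatory T cells, hosted a peak of 4.85 that was assigned to Mir568. Cd247, the zeta chain of the T cell receptor complex, hosted one of 3.66 assigned to Gm32999, and Batf, a leucine zipper partner in effector regulatory T cells, one of 3.59 assigned to LOC115488082. In the other direction, Lcp2, an adaptor of T cell receptor signalling, was assigned a peak of 5.79 in intron 4 of 4930469K13Rik, 16.3 kb from its TSS. Klf2, a factor of lymphocyte recirculation, was assigned a peak of 3.07 in intron 14 of Eps15l1, 31.7 kb from its TSS.

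Distance to the assigned TSS had a median of 13.7 kb (11.0 to 15.1), with quartiles of 7.28 and 24.7 kb. It ran from 3.06 kb at Ripor2 to 151 kb at Bcas3, since peaks nearer than 3 kb fall to the Promoter class. First-intron peaks had a median of 8.84 kb (7.63 to 12.6) and later-intron peaks 14.7 kb (12.9 to 16.9), against 11.8 kb (10.6 to 13.2) for Distal Intergenic peaks. Peaks assigned to another gene had a median of 16.2 kb (13.9 to 20.0) and those assigned to their host 11.0 kb (9.54 to 13.7). Of the 192 peaks assigned to another gene, 94 lay upstream of its TSS (49.0%), and 31 of the 271 assigned to their host did (11.4%). An intron lies downstream of the start of its transcript, and a first intron lies next to that start. Part of the difference between these shares, and in distance between first and later introns, is therefore built in.

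The intervals of median strength overlapped between all bands of distance. Median fold enrichment was 3.23 (2.85 to 3.79) for 50 peaks between 3 and 5 kb, 3.70 (3.54 to 3.85) for 145 peaks between 5 and 10 kb and 3.85 (3.66 to 4.11) for 154 peaks between 10 and 25 kb. It was 3.50 (3.31 to 3.73) for 72 peaks between 25 and 50 kb and 3.64 (3.07 to 3.90) for 42 peaks beyond 50 kb. The farthest of the 25 strongest peaks was that in Gab2. After Bcas3 at 3.63, the farthest peaks were those in Rad51b, at 149 kb and a fold enrichment of 2.60, and in Prkg1, at 126 kb and 3.18.

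**Figure D3:**
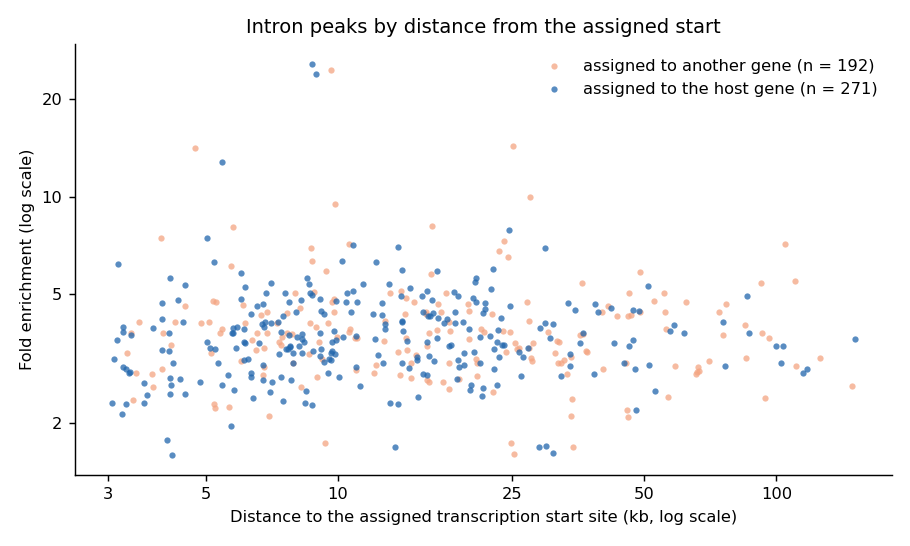
Fold enrichment (y axis) against the distance to the assigned TSS in kb (x axis), both on log scales, for all 463 intron peaks, coloured by whether another gene or the host was assigned. Peaks assigned to their host run from 3.06 to 151 kb and those assigned to another gene from 3.3 to 149 kb. The 3 highest points lie between 8.76 and 9.63 kb.

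Host genes often had a promoter peak as well. A gene counted as having one, here and below, only if a Promoter peak was assigned to it. Laptm5, Wdr76 and Picalm, for example, counted as hosts without one, although a peak assigned to another gene had its summit in their start windows. Of the 21887 coding genes on the main chromosomes, 348 hosted an intron peak (1.59%), and 11.3% of the 21887 had a promoter peak. Among the 348 hosts, 114 had one, or 32.8% (27.8 to 38.0), against 2362 of 21539 other coding genes, or 11.0% (10.6 to 11.4). The others include genes silent in T cells, since expression was not used here. Hosts were also longer, with a median gene length of 85.6 kb, against 16.8 kb for the others.

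Within bands of gene length the hosts again had the higher shares. From 10 to 30 kb, 26 of 64 hosts had a promoter peak (40.6%, 28.5 to 53.6), against 11.6% of the others. From 30 to 100 kb, 46 of 131 hosts had one (35.1%, 27.0 to 43.9), against 14.3%, and over 100 kb, 39 of 150 hosts (26.0%, 19.2 to 33.8), against 10.7%. Only 3 hosts were shorter than 10 kb.

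**Figure D4:**
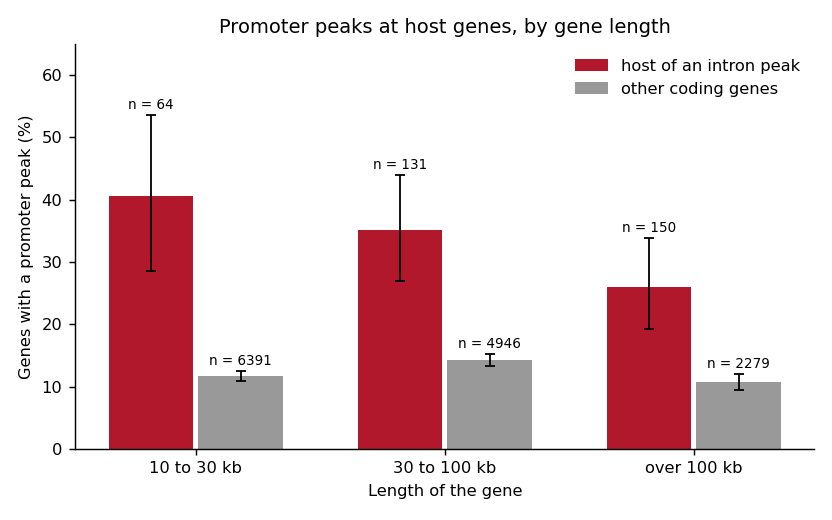
Percentage of coding genes with a promoter peak, for hosts of an intron peak and for other coding genes in 3 bands of gene length, with exact 95% intervals and the number of genes over each bar. Host bars stand at 40.6%, 35.1% and 26.0%, and the bars of other genes at 11.6%, 14.3% and 10.7%.

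Counting hosts of every type, 125 genes had an intron peak and a promoter peak assigned to them. The intron peak was the stronger by fold enrichment at 69 of them (55.2%, 46.0 to 64.1) and by −log10 q at 38 (30.4%, 22.5 to 39.3). At Gm38424 the start peak was the stronger, at Bcl2l11 the intron peak. Intron peaks in hosts with a promoter peak had a median fold enrichment of 3.49 (3.29 to 3.68), against 3.79 (3.62 to 3.86) in hosts without.

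Several genes carried more than 1 intron peak. Of 392 host genes, 341 had 1, 35 had 2 and 16 had 3 or more. Cep85, a centrosome gene, had 4 in intron 3, from 3.43 to 5.60, and no promoter peak. Inpp4b, a lipid phosphatase gene, had 4 spread over introns 1, 6, 8 and 15, from 3.47 to 3.82. Snx29, a sorting nexin gene, had 3 in introns 11, 13 and 18, from 4.41 to 5.90, and Camk2b, a calmodulin-dependent kinase gene, had 3 in intron 2, from 4.09 to 5.21. Tspan32, a tetraspanin of blood cells, had 3 in intron 4, from 4.09 to 4.80, next to a promoter peak at 4.21.

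Ets1, a T cell factor, had 3 intron peaks in intron 3, at 3.68, 6.77 and 7.74 kb from the assigned TSS and with fold enrichments of 2.44, 3.02 and 3.76. Promoter peaks at 4.29 and 3.08 preceded them. Cytip, which regulates adhesion of lymphocytes, had 3 first-intron peaks, at 3.13, 2.73 and 2.54, and promoter peaks at 4.74 and 4.67. The centres of these intron peaks lay 41.6, 39.9 and 5.87 kb from the 5′ end of the gene. Those of the promoter peaks lay at 36.1 and 38.9 kb, so the weakest intron peak was far from them.

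Core genes of regulatory T cells hosted intron peaks at 9 of 33 genes, or 27.3% (13.3 to 45.5), beside the 1.59% of all coding genes. That share, here and below, counts genes silent in T cells too, since expression was not used. The median length of these genes was 34.5 kb, and of all coding genes over 100 kb, 6.18% hosted a peak. Their 11 peaks had a median fold enrichment of 3.30, below the 3.66 of all intron peaks. The strongest were those of Nt5e and Tigit. The list was chosen with earlier results of these data known.

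Foxp3, the lineage factor of regulatory T cells, had its intron peak at chromosome X, 7583725 to 7584204, in intron 1 of the host transcript. Its fold enrichment was 3.98 and its −log10 q 7.58, against 4.97 and 6.49 at the stronger of its promoter peaks and 3.46 and 3.61 at the other. Its centre lay 4.29 kb from the 5′ end of the gene and its near edge 3.24 kb from the assigned TSS. Whether it covers a known enhancer of that intron was not analysed here.

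Il2ra, the high-affinity interleukin-2 receptor chain, had a peak of 3.30 in intron 1 and one of 2.97 in intron 7, both below its promoter peak at 5.47. The one in intron 7 was assigned to Gm39759. Il2rb, the beta chain of that receptor, had 3.27 in intron 9. Ikzf2, which encodes Helios, had 3.92 in intron 3 and 3.01 in intron 6, and the second was assigned to Gm28497, with a TSS 111 kb away. Icos, a costimulatory receptor gene, had 3.34 in intron 4, against 9.60 at its promoter. Runx1, a partner of Foxp3, had 3.07 in intron 2, and Bach2, which restrains effector differentiation, 3.03 in intron 2 at 51.2 kb. Klrg1, a receptor of mature regulatory T cells, had 3.78 in intron 3 and no other peak. Foxo1, Tcf7 and Lef1 had 0 peaks of any class, and Ctla4 and Satb1 had promoter peaks and 0 peaks of the Intron class. Peaks nearer than 3 kb to a TSS fall to the Promoter class even inside a gene. The 4 peaks of Ctla4 lay from 0 to 2.71 kb from its TSS, so the class does not show that its introns lacked peaks.

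**Figure D5:**
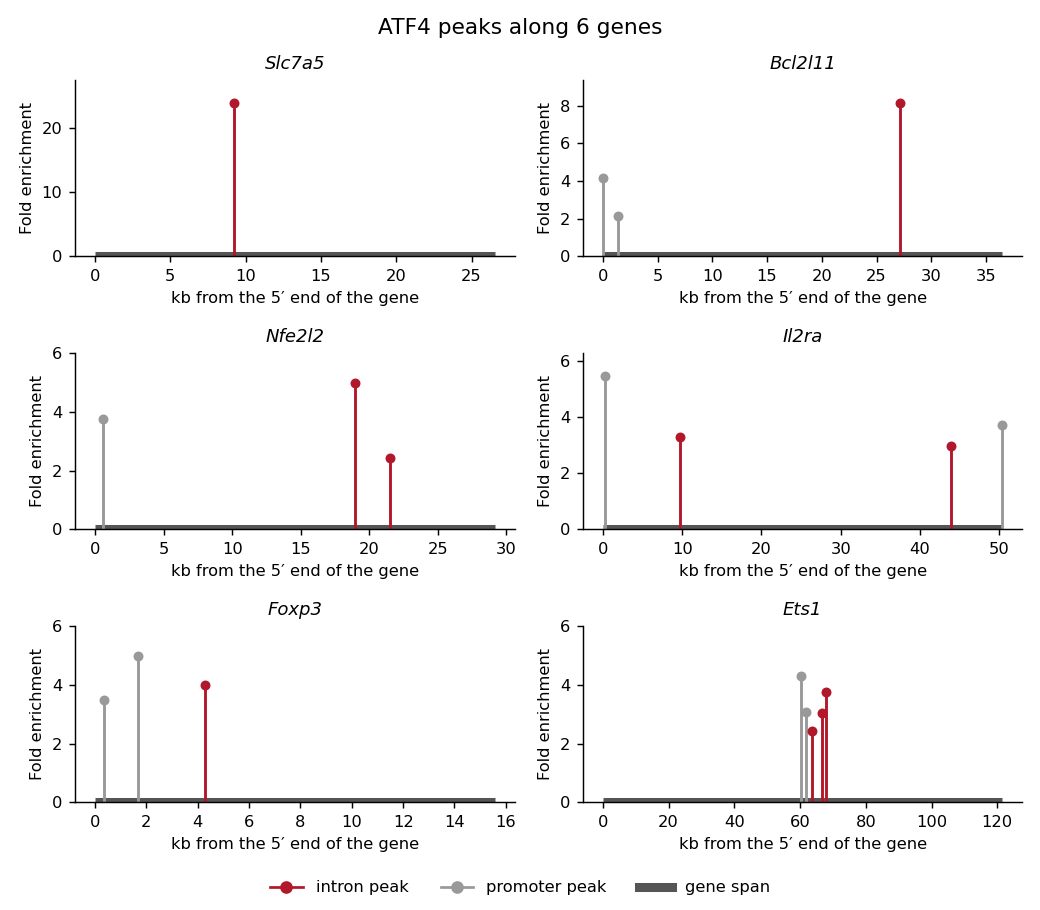
Fold enrichment (y axis) of each listed peak inside 6 genes against the distance of the peak's centre from the 5′ end of the gene in kb (x axis), with intron peaks in red, promoter peaks in grey and the gene span as a bar. Intron peaks are the tallest in Slc7a5 at 24.0, Bcl2l11 at 8.16 and Nfe2l2 at 4.96, and promoter peaks are the tallest in Il2ra, Foxp3 and Ets1. The grey point at the far end of Il2ra is a promoter peak of Gm39759.

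Basic leucine zipper factors hosted intron peaks at 5 of 51 genes, or 9.80% (3.26 to 21.4), beside 1.59% of all coding genes. A promoter peak was listed for 27 of the 51 (52.9%), beside 11.3% of all coding genes, so a high share was not particular to introns. Nfil3, a transcriptional repressor, had 6.20 in its only intron, 3.16 kb from the TSS. Nfe2l2, which encodes the oxidative stress factor NRF2, had peaks of 4.96 and 2.44 in intron 1, at 18.8 and 21.3 kb, and a promoter peak of 3.77. Nfe2l3 hosted one of 4.13 that was assigned to Hnrnpa2b1, and Batf and Bach2 were named above.

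Canonical ATF4 targets hosted an intron peak at 1 of 40 genes, which was Slc7a5 (2.50%, 0.0633 to 13.2), near the 1.59% of all coding genes. A promoter peak was listed for 29 of the 40 (72.5%), beside 11.3% of all coding genes. High shares were not particular to these targets. In the other lists named here the share ran from 0% for the B cell markers and the NK or CD8 markers to 54.8% for T cell transcription factors. It was 54.5% for core genes of regulatory T cells. Amino acid transporters had 1 of 32, again Slc7a5 (3.12%, 0.0791 to 16.2), and aminoacyl-tRNA synthetases 1 of 37, which was Fars2 at 5.49 (2.70%, 0.0684 to 14.2). In the list for the unfolded protein response and protein folding, 2 of 32 genes were hosts (6.25%, 0.766 to 20.8), and that interval holds the 1.59% of all coding genes. Of these, Ern1, the stress sensor IRE1, had 4.44 in intron 2, and Edem3, which acts in the disposal of misfolded proteins, had 3.47 and 3.06 in intron 13. The nutrient sensing and glycolysis lists had 0 hosts of 35 and of 23, and their intervals reach up to 10.0% and 14.8%. Pfkp counted as no host, since the peak inside it was annotated to Gm35730.

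Genes of T cell receptor signalling hosted intron peaks at 3 of 37 genes (8.11%, 1.70 to 21.9), beside 1.59% of all coding genes. They were Cd247, Grap2 at 3.29 and Ptprc at 2.83. T cell transcription factors had 2 of 31 (6.45%, 0.791 to 21.4), Ets1 and Ikzf3 at 2.84. T cell migration genes had 2 of 24 (8.33%, 1.03 to 27.0), the integrin gene Itga4 at 4.70 and Rac2 at 2.52. Both of these intervals hold 1.59%. Among markers of other cells that the enriched population could hold, 0 of 15 for B cells and 0 of 15 for NK or CD8 cells were hosts, with intervals up to 21.8%. For red cells it was 0 of 10, up to 30.8%, and for myeloid cells 1 of 20 (5.00%, 0.127 to 24.9), the Fc receptor gene Fcgr1 at 4.34. All of these intervals hold 1.59% too.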

How the data were processed

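The single deposited table was a peak list made by the authors with Trim Galore, Bowtie2, MACS2 and deepTools on mm10, per the submitters' processing notes. The sources used here give neither versions, nor how inputs were handled, nor whether replicates were pooled. Each deposited row packs 17 fields of different kinds, and its fold enrichment, −log10 q, annotation class, distance and gene are the authors' values. They have the layouts of MACS2 and ChIPseeker. Rows whose field 8 began with Intron were kept, and starts were raised by 1.

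Gene spans, types and start windows came from RefSeq tables of GRCm38.p6. All 568 symbols of host and assigned genes were matched. Peaks taken to lie over repeated sequence were those on unplaced or unlocalised sequences or of genes with 10 or more peaks.

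Shares have exact Clopper-Pearson intervals, medians exact order-statistic intervals, and differences of medians combine the latter, all at 95%. Peaks are not replicates, so no test was made. The interval and motif routines were tested on simulated data. Python 3.11.15, numpy 2.4.6, pandas 2.3.3, scipy 1.17.1 and matplotlib 3.10.9 were used.

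Genes were named from the 25 strongest intron peaks, the strongest of first and later introns and of peaks with another assigned gene, the 3 farthest peaks, hosts with 3 or more peaks, up to 5 per gene list and 17 fixed genes. Of the list entries, Ahsp had no match. The rule to show sequences of the strongest intron peaks could not be followed without a genome. The members and lists were chosen with earlier results of these data known. Alternatives covered thresholds of strength and significance, repeated sequence, 1 peak per gene and the definitions of intron and assigned gene. B2m, Gm26812, Il10ra, Tmem154 and Sfpq were chosen after their values were seen. Some results under the naming rule are not reported here.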

Additional observations from a re-analysis of the deposited data

How the results depend on the processing

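Of 31 recomputed values, 22 stayed within the interval of the value as deposited and 9 left it or changed unit. With a −log10 q of at least 3, introns held 8.27% of listed peaks, 22.5% of intron peaks reached a fold enrichment of 5, and the median was 4.21. With a fold enrichment of at least 3, introns held 12.7% of peaks, the median was 3.93 and first minus later introns came to 0.16, the sign turned from −0.32. Both thresholds remove weak peaks by construction. In −log10 q the median was 3.68 and first minus later introns −0.0236. Taking any peak inside a coding gene span and over 3 kb from the TSS, whatever its annotation class and so with exons included, the share was 11.9%. The shares of first introns and of peaks assigned to their host, and the median distance, stayed within their intervals under every alternative run. The share of intron peaks holding the composite motif was not run, since no genome sequence was used. No paired analysis was possible because the only table has no values per sample, and for the same reason no replicate could be left out. Depth is unknown.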

Other observations

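Il10ra, the ligand-binding chain of the interleukin-10 receptor, hosted intron peaks of 3.79 in intron 5 and 3.28 in intron 6, both assigned to Mir7086, and had a promoter peak at 4.74 and a distal one at 3.73. At Phykpl, a lysine metabolism gene, 3 intron peaks ranged from 3.34 to 4.37, and 2 of them were assigned to the neighbouring gene Hnrnpab.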
